A study of Mus musculus with 18 samples.

Results

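The genes described are those of the cytosolic ribosomal proteins, the protein components of the ribosome that translates nuclear-encoded messages. They were chosen by symbol alone: gene symbols of the form Rpl or Rps with a number, and Rplp0 to Rplp2, read from probe sets (groups of short array probes against 1 transcript) that the platform annotation assigns to exactly 1 symbol, with the brightest probe set standing for each gene. This gave 48 genes of the 18194 measured, 26 of the large ribosomal subunit (Rpl) and 22 of the small subunit (Rps). Of these, 44 (23 large, 21 small) were among the 10916 genes bright enough to be tested, whose dimmest had a mean RMA value of 9.42. RMA values are log2 fluorescence summaries.

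Whole brains came from mouse pups of both sexes killed at postnatal day 8. The groups were Mt-KO pups (-/-), homozygous for a metallothionein knockout, heterozygous pups (+/-), and wild-type pups (+/+). All 3 genotypes came from sib crosses on a C57BL/6J background, reached after 7 or more backcross generations. Within each genotype, pups received lead acetate at 50 mg/kg or saline, in 2 daily injections spaced by 4 h on postnatal days 7 and 8, and were killed 6 h later. Each combination is 1 array of RNA pooled from 5 pups, so there were 6 pools and no replicate of any. The lead effect was therefore judged over the 3 genotypes. The labels do not say which part of which metallothionein gene was altered. The design asks whether lead given while synapses form changes brain expression, and whether metallothioneins, small metal-binding proteins, alter the change.

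Ribosomal proteins are made in nearly equal numbers, assemble with ribosomal RNA in the nucleolus, and are among the most abundant messages of a cell. Many of their messages begin with a run of pyrimidines, the terminal oligopyrimidine tract, through which the mTOR pathway and the protein LARP1 set how strongly they are translated. When assembly is disturbed, free Rpl11 and a few others bind Mdm2 and stabilise p53, and mice with 1 damaged copy of a ribosomal protein gene can show anaemia, dark skin or skeletal defects.

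Some facts of the whole series bear on every value below. The deposited RMA columns were not brought to a common distribution: the standard deviation over all probe sets ranged from 1.83 to 1.93, and was highest in wild-type saline. The 3′ over 5′ difference of Gapdh, which reads RNA integrity and labelling, was 1.19 there, against 0.54 to 0.82 in the other 5 pools. Mt1, a metallothionein gene, measured 11.71 and 11.68 in Mt-KO lead and saline, 12.87 and 12.45 in heterozygous lead and saline, and 13.30 and 13.17 in wild-type lead and saline. It was lowest in Mt-KO but still bright, and whether its probes lie in the altered stretch is not known here. All 7 neuron markers were bright in every pool (13.30 to 15.28). The female-specific RNA Xist was lower in Mt-KO lead (10.23) than in the other 5 pools (11.91 to 12.75), and growth hormone, a pituitary gene, was higher in heterozygous lead (11.48) than in the others (9.29 to 9.83). The part of RNA quality, sex and dissection in the results was not tested. In bulk tissue fewer cells and less RNA per cell cannot be told apart.

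The ribosomal protein probe sets were among the brightest on the arrays. Of the 48 genes, 36 had a mean RMA value of 12 or more. The 5 brightest were Rps29, a zinc-binding protein of the small subunit head (14.95), Rps28 (14.89), Rpl41, whose product is a very short peptide (14.68), Rps7 (14.64) and Rps2 (14.62), and Rps29 ranked 13 among all 18194 genes. Brightness depends on the probes as well as the transcript, so these values do not rank transcript abundance. The 12 genes below 12 were each read by a probe set of the plain type, whereas the 36 brighter ones were mostly read by types whose probes match several transcript forms or related sequences (17 of type _a_at, 13 of type _x_at, 2 of type _s_at, 4 plain). The 4 genes too dim to be tested were Rpl14 (8.60), Rpl39l (8.01), Rpl3l (7.76), a paralogue known from muscle, and Rps16 (6.34). Rpl27a (9.48), Rps27 (9.62), Rps6 (9.89), Rpl12 (9.99) and Rpl39 (10.17) were dim although tested. The current gene table holds 83 coding genes that fit the symbol rule, of which 36 are not described here, 28 of them because they appear only in probe sets with several symbols; Rplp1, Rpl5, Rpl10, Rpl23 and Rps27a are among the 36. Rps4l is listed in that table as a transcribed pseudogene.

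RefSeq start-site windows (GRCm38.p6) were found for 42 of the 48 genes. A pyrimidine run was taken as a C followed by at least 5 pyrimidines and starting within 10 bases of the annotated start. It was present in 22 of 42 (52.4%), against 19.6% of 8778 other tested genes. Some runs, such as those of Rpl6, Rpl10a and Rps27l, end before the annotated start. The share is therefore not a count of messages with a terminal tract. The ETS-type motif CCGGAAG, on either strand from 250 bases before to 50 after the start, was present in 20 of 42 (47.6%), against 17.3% of the other genes. AAGATGG, a YY1-type motif, was present in 7 (16.7%) against 7.36%, and the GC box GGGCGG in 23 (54.8%) against 65.2%. The 30 bases from 10 before to 20 after the annotated start are shown for the genes on which the results turn, with the pyrimidine run in capitals: Rpl27a (chr7:109519185-109519214, plus strand), Rpl12 (chr2:32961702-32961731, plus strand), Rpl38 (chr11:114668570-114668599, plus strand), Rps6 (chr4:86857348-86857377, minus strand) and Rplp2 (chr7:141447641-141447670, plus strand) have a run, and Rpl37a (chr1:72711250-72711279, plus strand) and Rps28 (chr17:33824543-33824572, minus strand) have none by this rule.
Rpl27a: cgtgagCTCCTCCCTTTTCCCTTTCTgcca
Rpl12: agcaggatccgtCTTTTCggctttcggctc
Rpl38: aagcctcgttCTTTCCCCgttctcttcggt
Rps6: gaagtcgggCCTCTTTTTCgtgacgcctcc
Rplp2: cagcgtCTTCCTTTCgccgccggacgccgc
Rpl37a: ctcgccggtctaaaaccgcgcatgcgcatt
Rps28: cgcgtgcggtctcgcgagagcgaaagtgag

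The genes moved together from pool to pool, and the order of the pools was neither that of the treatments nor that of the genotypes. The median over the 44 tested genes was 14.03 in Mt-KO lead, 13.83 in Mt-KO saline, 14.30 in heterozygous lead, 13.92 in heterozygous saline, 13.96 in wild-type lead and 14.48 in wild-type saline. Wild-type saline was the highest pool for 38 of 44 genes, against 41.4% of the other tested genes, and Mt-KO saline was the lowest pool for 28 of 44, against 27.5%. Among genes at a mean of 13 or more, wild-type saline was highest for 33 of 34 ribosomal protein genes and for 66.0% of 840 others. The typical gap between a gene's highest and lowest pool was 0.64 for the ribosomal protein genes and 0.34 for the other tested genes. After the arrays were given a common distribution by quantile normalization it was 0.20, against 0.25 for the others. Among genes at a mean of 13 or more the gap was 0.70 for the ribosomal protein genes and 0.54 for the others. After quantile normalization it was 0.19 for both of these bright groups.

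**Figure D1:**
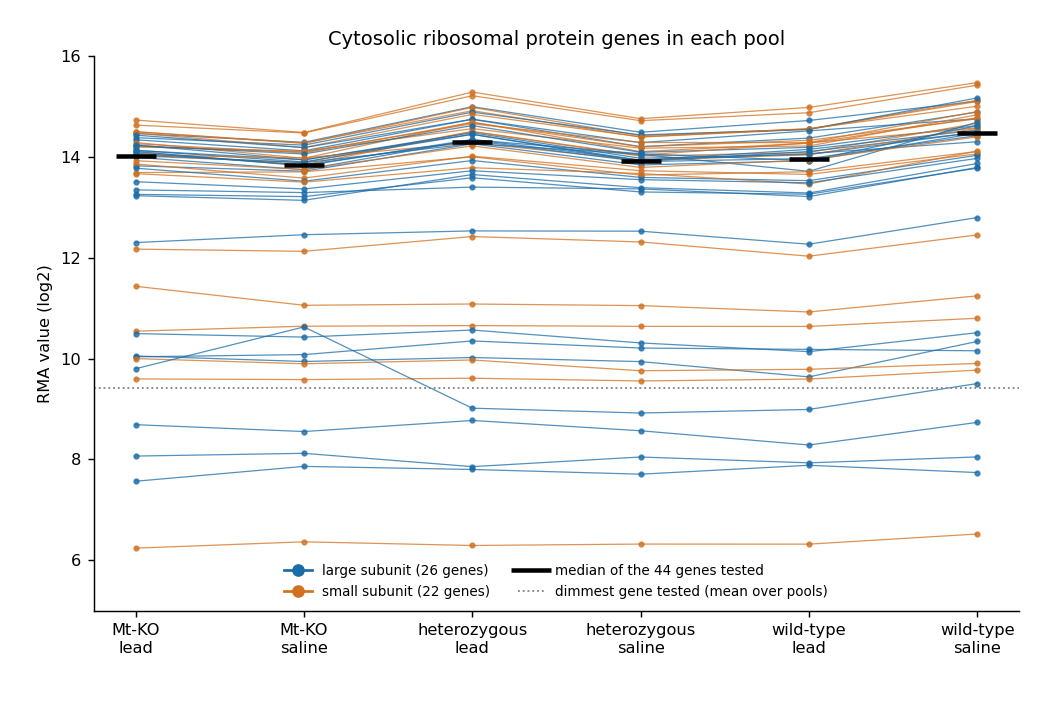
RMA value (log2, vertical axis) of each of the 48 ribosomal protein genes in the 6 pools (horizontal axis), 1 line per gene, coloured by subunit; black bars are the median of the 44 genes tested and the dotted line is the dimmest gene tested. The median is highest in wild-type saline (14.48) and lowest in Mt-KO saline (13.83).

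Lead did not change any ribosomal protein gene past the threshold. In limma's additive fit with genotype as a block, 0 of 44 genes had an adjusted p under 0.05, 1 had an unadjusted p under 0.05, and 0.119% of all genes tested were called (13 of 10916). The median lead coefficient was 0.030 over the ribosomal protein genes and 0.022 over all genes tested, and 24 of the 44 were above 0. The SE was set by brightness and ran from 0.11 for Rpl27a to 0.41 for Rps29. A bright gene therefore needed a larger coefficient than a dim one to be called. The absence of calls among the bright genes does not show that they were unchanged. Rpl27a and Rpl12, the genes called in the genotype and allele tests below, are both dim. The gene with the unadjusted p under 0.05 was Rpl27a, with a coefficient of -0.42 (SE 0.11, limma adjusted p = 0.104). Rpl27a had lead minus saline differences of -0.83 in Mt-KO, 0.096 in heterozygous and -0.51 in wild-type brains, not all of the same sign. It was called when the wild-type pair was left out (-0.37, limma adjusted p = 0.0451, against 0.104 to 1 in the other settings), a fit that called 2632 genes in all.

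The 3 pairs behind the lead coefficient ran in opposite directions. Over the 44 genes the median of lead minus saline was 0.16 in Mt-KO, 0.38 in heterozygous and -0.49 in wild-type brains, a mean of 0.017 ± 0.451 (SD, n = 3 pairs). In heterozygous brains all 44 genes were higher with lead and in Mt-KO brains 39 were, while 43 were lower with lead in the wild-type pair. All tested genes together leaned the same way, with medians of 0.09, 0.15 and -0.18 in the Mt-KO, heterozygous and wild-type pairs, and over the 7882 other genes in the band of brightness that holds most of the ribosomal protein genes (10.24 to 14.62) the medians were 0.11, 0.17 and -0.21. Each pair is 1 pool against 1, so the difference within a pair has no replicate check.

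Rplp0, the stalk protein that anchors the acidic P proteins and through them recruits the elongation factors, measured 14.24 and 13.94 in Mt-KO lead and saline, 14.48 and 13.98 in heterozygous lead and saline, and 14.05 and 14.49 in wild-type lead and saline. Its lead coefficient was 0.12 (SE 0.31). Lead and saline values overlapped, and the difference changed sign between genotypes. Rps6, the small-subunit protein phosphorylated by S6 kinase, was highest in Mt-KO lead and measured 9.90 in Mt-KO saline, 9.97 and 9.76 in heterozygous lead and saline, and 9.79 and 9.91 in wild-type lead and saline, with a coefficient of 0.067 (SE 0.12). Rplp0 followed the pattern of the pools, with wild-type saline highest and Mt-KO saline lowest. Rps6 did not, since its highest pool was Mt-KO lead and its lowest heterozygous saline.

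Because bright genes moved furthest in every pair, each ribosomal protein gene was also set against the 50 other genes nearest to it in mean RMA value. Against these, the sign of the median turned in the Mt-KO pair (-0.042, 30 of 44 below their neighbours) and in the heterozygous pair (-0.031, 30 of 44 below), both close to 0. With GC-RMA these medians were -0.0052 (22 of 44 below) and -0.030 (27 of 44 below). In the wild-type pair they lay below their neighbours with a median of -0.15, and 40 of 44 were below. The mean over the 3 pairs was -0.075 ± 0.067 (SD, n = 3). Treated the same way, 50.0% of the other tested genes lay below their neighbours in Mt-KO, 50.1% in heterozygous and 49.9% in wild-type brains. In all 3 pairs at once, 21 of 44 ribosomal protein genes were below their neighbours and only Rps20 was above, against 12.4% and 12.6% of the other tested genes. The genes share arrays and move together, so these counts describe 6 pools and are not independent observations. With quantile normalization, GC-RMA and PLIER the wild-type median against the neighbours was -0.14, -0.25 and -0.20, with 40 of 44 below in each. The wild-type saline pool of this pair is the one with the largest Gapdh 3′ over 5′ difference (1.19), and its part in the result was not tested. Markers of cell types also differed from their neighbours in the same pair. The medians above 0 were 0.58 for 5 tested granule precursor markers, 0.51 for 4 oligodendrocyte, 0.35 for 2 pituitary, 0.26 for 6 astrocyte, 0.19 for 5 proliferation, 0.18 for 4 microglia and 0.13 for 2 choroid plexus markers. Those below 0 were -0.011 for 7 neuron, -0.011 for 2 erythroid and -0.099 for 4 endothelial markers and -0.15 for the 1 tested liver or muscle marker. The granule precursor, astrocyte and proliferation medians were also above 0 in Mt-KO (0.37, 0.097 and 0.043) and heterozygous brains (0.21, 0.11 and 0.13). The part of cell composition in the ribosomal protein values was not tested.

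**Figure D2:**
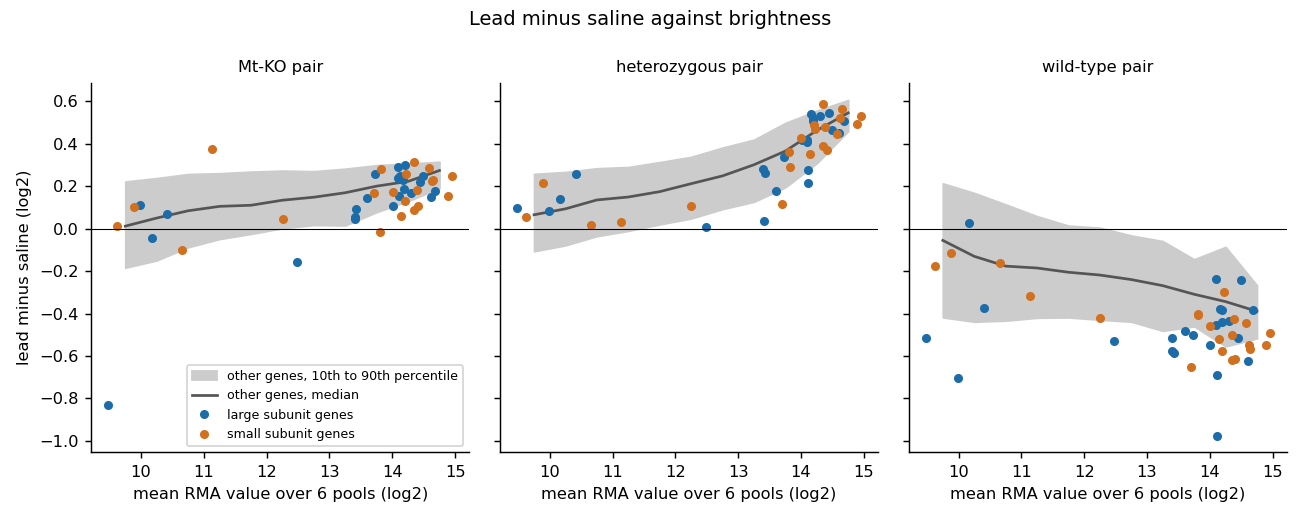
Lead minus saline (log2, vertical axis) against the mean RMA value over the 6 pools (log2, horizontal axis) in the Mt-KO, heterozygous and wild-type pairs. Points are the 44 ribosomal protein genes by subunit, the line and band are the median and the 10th to 90th percentiles of the other tested genes in bins of brightness; most points lie near the line in the Mt-KO and heterozygous pairs and below it in the wild-type pair.

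The gap to equally bright genes in the wild-type pair was widest for Rpl37a, a zinc-binding protein of the large subunit (-0.66), Rpl12, which sits at the base of the stalk (-0.62), Rpl27a (-0.48), Rplp2, an acidic stalk protein (-0.37), and Rps19, the gene most often mutated in human Diamond-Blackfan anaemia (-0.34). Rpl37a measured 14.04 and 13.89 in Mt-KO lead and saline, 14.27 and 14.05 in heterozygous lead and saline, and 13.72 and 14.69 in wild-type lead and saline. Wild-type lead was thus its lowest pool and wild-type saline its highest. The gene's other 2 probe sets, at means of 14.03 and 9.74, measured 13.86 and 9.39 in wild-type lead against 14.61 and 10.21 in wild-type saline. Above their neighbours in the wild-type pair were Rpl39 (0.21), Rpl10a (0.14), Rpl7 (0.081) and Rps20 (0.033). Rpl39, an X-linked gene whose product lines the exit tunnel, was the only ribosomal protein gene tested that was higher with lead in the wild-type pair (10.18 against 10.16 in saline). Its 6 values spanned 10.04 to 10.35.

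**Figure D3:**
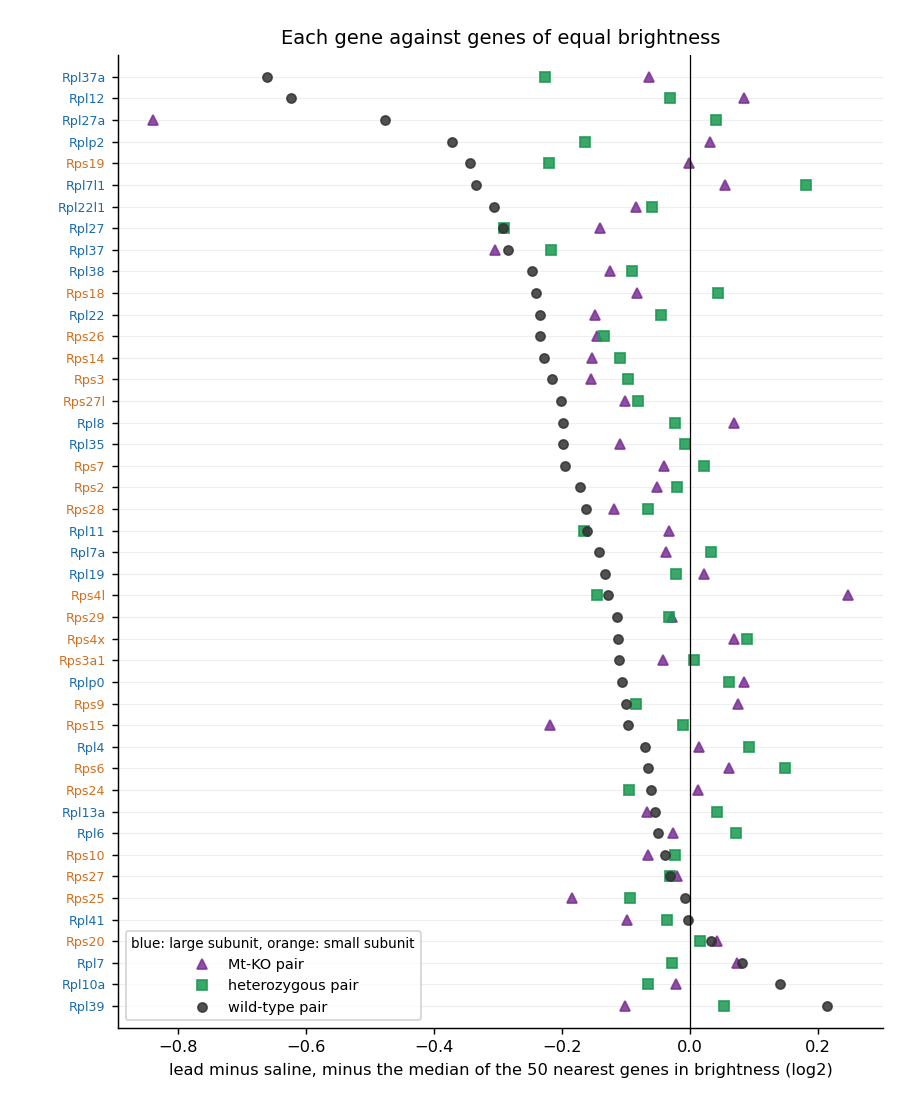
Lead minus saline of each of the 44 ribosomal protein genes less the median of its 50 nearest genes in brightness (log2, horizontal axis), 1 row per gene in the order of the wild-type pair, with a triangle for the Mt-KO pair, a square for the heterozygous pair and a circle for the wild-type pair. The wild-type circles run from -0.66 (Rpl37a) to 0.21 (Rpl39), and 40 of 44 lie below 0.

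The lowest lead coefficients after that of Rpl27a were those of Rpl37, another zinc-binding protein (-0.23, SE 0.18), Rpl37a (-0.20, SE 0.30), Rpl12 (-0.17, SE 0.12) and Rpl27 (-0.16, SE 0.24). The highest were those of Rpl10a (0.16, SE 0.34), Rpl7 (0.15, SE 0.30), Rps20 (0.14, SE 0.31), the X-linked Rps4x (0.13, SE 0.33) and Rpl4, whose extension reaches into the exit tunnel (0.13, SE 0.31). Every one of these had a limma adjusted p of 1. Rpl37 was below its neighbours by a similar amount in all 3 pairs, with differences of -0.31 in Mt-KO, -0.22 in heterozygous and -0.29 in wild-type brains. It measured 12.30 and 12.46 in Mt-KO lead and saline, 12.53 and 12.53 in heterozygous lead and saline, and 12.27 and 12.80 in wild-type lead and saline. Its lead and saline values overlapped.

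Large- and small-subunit genes had similar lead differences before brightness was taken into account. The median of the large-subunit genes was lower than that of the small-subunit genes in every pool, by 0.047 in Mt-KO lead up to 0.24 in heterozygous lead, which sets different probe sets side by side and does not compare amounts. Lead minus saline had medians of 0.15 (large) and 0.17 (small) in Mt-KO, 0.33 and 0.39 in heterozygous, and -0.50 and -0.46 in wild-type brains. Large minus small averaged -0.039 ± 0.019 over the pairs (SD, n = 3), a small difference of the same sign in all 3 with RMA. PLIER also gave this sign in all 3. With GC-RMA large minus small was 0.0087 in the wild-type pair, and with quantile normalization 0.012 in the heterozygous pair. Once each gene was set against its neighbours, the RMA mean of large minus small was -0.025 ± 0.051, less than the spread between pairs. The medians against neighbours were -0.038 (large) and -0.042 (small) in Mt-KO, -0.028 and -0.033 in heterozygous, and -0.20 and -0.11 in wild-type brains, so the subunits differed mainly in the wild-type pair. With GC-RMA the order there was the other way, -0.20 for large- and -0.28 for small-subunit genes. In the fit the median lead coefficient was -0.0077 over 23 large-subunit genes and 0.034 over 21 small-subunit genes.

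Knockout of metallothionein was accompanied by a change in 1 of 44 ribosomal protein genes. In limma's additive fit with treatment as a block, 0.431% of all genes tested were called (47 of 10916), and Rpl27a was called higher in Mt-KO brains. Its coefficient was 0.97 (SE 0.13, 1.95-fold, limma adjusted p = 1.28e-09). This SE is the one fitted for genes of its brightness and leaves out the scatter of Rpl27a itself. Its lead minus saline differences were -0.83 in Mt-KO, 0.096 in heterozygous and -0.51 in wild-type brains. Rpl27a encodes a large-subunit protein, and a mouse mutation in it is known for dark feet and ataxia. Its probe set measured 9.80 and 10.63 in Mt-KO lead and saline, 9.02 and 8.92 in heterozygous lead and saline, and 8.99 and 9.51 in wild-type lead and saline. Both Mt-KO pools lay above all 4 others. A dimmer probe set of Rpl27a did not separate them: it measured 7.07 and 7.18 in Mt-KO lead and saline and 6.82 to 7.12 in the other 4 pools. The call rests on the Mt-KO saline pool, since without it the coefficient was 0.66 (limma adjusted p = 0.528). The call was also lost with GC-RMA (coefficient 1.86, limma adjusted p = 0.266), with quantile normalization (0.98, limma adjusted p = 0.306), with arrays centred on the median gene (0.96, 0.179), with the mean over its probe sets (0.53, 0.0718), with no brightness filter (0.97, 0.186) and when limma's spread was not tied to brightness (0.97, 0.351). The last 2 settings leave the coefficient as it was. Over all alternatives its limma adjusted p ran from 1.62e-09 to 0.528. Rpl27a lies on chromosome 7, Mt1 and Mt2 lie on chromosome 8, and none of the 48 genes lies on chromosome 8.

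**Figure D4:**
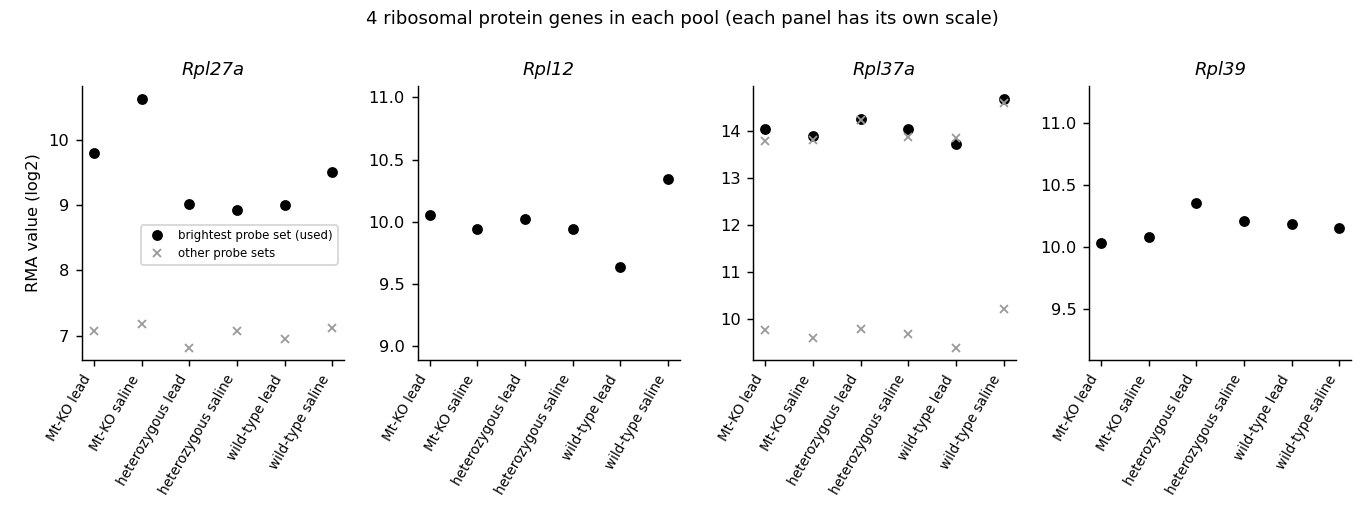
RMA value (log2, vertical axis, scaled separately in each panel) of Rpl27a, Rpl12, Rpl37a and Rpl39 in the 6 pools; filled points are the probe set used and crosses the gene's other probe sets. The 2 Mt-KO points of Rpl27a lie above the other 4, and wild-type lead and saline are the lowest and highest points of Rpl12 and of the filled Rpl37a points.

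In the deposited RMA values the other ribosomal protein genes were mostly lower in Mt-KO brains than in wild-type ones, without passing the test. The median Mt-KO coefficient was -0.29, against -0.029 over all genes tested, and 39 of 44 were below 0. The lowest were Rps29 (-0.62, SE 0.50), Rps28 (-0.60, SE 0.49), Rpl38, whose loss in mice alters the axial skeleton (-0.55, SE 0.44), Rpl41 (-0.54, SE 0.45) and Rps20, a gene of mouse dark-skin mutants (-0.46, SE 0.38). The highest after Rpl27a were Rps4l (0.16, SE 0.17), Rpl7l1 (0.14, SE 0.15), Rps6 (0.10, SE 0.14) and Rpl12 (0.0090, SE 0.15). The difference lay in the saline pools: Mt-KO minus wild-type had a median of -0.0030 after lead and -0.59 after saline, and against equally bright genes the medians were 0.064 and -0.016. With quantile normalization the median Mt-KO coefficient was -4e-04, and 22 of 44 genes were above 0. It was -0.14 with GC-RMA and -0.40 with PLIER. Rpl38 measured 14.38 and 14.24 in Mt-KO lead and saline and 14.55 and 15.17 in wild-type lead and saline. Its Mt-KO values both lay below its wild-type values. Without the wild-type lead pool 36 of the 44 genes were called (Rpl27a higher, 35 lower, of 4380 genes called in all), and without the wild-type saline pool 4 were called, all higher (Rpl27a, Rps4l, Rpl7l1 and Rpl12, of 2429 in all).

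The heterozygote differed from the wild type in 0 of 44 ribosomal protein genes by limma, with 1 at an unadjusted p under 0.05 and 0.119% of all genes tested called (13 of 10916). The median coefficient was -0.10, against 0.0042 over all genes. The lowest were Rpl27a (-0.28, SE 0.13), Rps29 (-0.21, SE 0.50), Rps3, which lines the messenger RNA entry channel (-0.20, SE 0.37), Rpl38 (-0.20, SE 0.44) and Rps28 (-0.18, SE 0.49). The highest were Rps27l, a paralogue of Rps27 that p53 can induce (0.13, SE 0.21), Rpl7l1 (0.11, SE 0.15), Rpl39 (0.11, SE 0.15), Rps6 (0.020, SE 0.14) and Rps9 (0.015, SE 0.33). Heterozygous minus wild-type had a median of 0.34 after lead, with all 44 genes above 0, and of -0.54 after saline, with 43 of 44 below 0. All tested genes leaned the same way, with medians of 0.17 after lead (82.3% above 0) and -0.16 after saline (80.9% below 0), and against equally bright genes the medians of the ribosomal protein genes were 0.068 and -0.054. These differences share their wild-type pools with those of the Mt-KO comparison. With quantile normalization the median heterozygous coefficient was 0.0020, and 23 of 44 genes were above 0. It was -0.096 with GC-RMA and -0.14 with PLIER. Without the wild-type lead pool 6 genes were called, all lower (Rpl37a, Rpl22l1, Rpl27, Rpl22, Rps4l and Rpl12), in a fit that called 2421 of 10916 genes. Without the wild-type saline pool 3 were called, all higher (Rps27l, Rpl7l1 and Rpl12), in a fit that called 2627. Both counts are a smaller share of the ribosomal protein genes than of all genes tested.

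The test of lead by number of intact metallothionein alleles called 1 ribosomal protein gene, Rpl12. In the fit with treatment, allele number as a linear term and their product, 3.77% of all genes tested were called (412 of 10916), 1 of 44 ribosomal protein genes was called, and 4 had an unadjusted p under 0.05. The median coefficient was -0.32 per intact allele over the ribosomal protein genes and -0.15 over all genes, and 42 of 44 were below 0. With quantile normalization these medians were -0.038 and -0.0035, and 13 of 44 ribosomal protein genes were above 0. With GC-RMA and PLIER the ribosomal protein median was -0.19 and -0.45. Without the wild-type lead pool it was 0.023, and without the wild-type saline pool -0.097. For Rpl12 the lead difference changed by -0.41 per intact allele (SE 0.11, limma adjusted p = 0.0122). Rpl12 measured 10.05 and 9.94 in Mt-KO lead and saline, 10.02 and 9.94 in heterozygous lead and saline, and 9.64 and 10.34 in wild-type lead and saline. The Mt-KO and heterozygous pools lay close together, and wild-type lead and saline were the lowest and highest of the 6. Lead minus saline was 0.11 in Mt-KO, 0.081 in heterozygous and -0.70 in wild-type brains, which is not an even step per allele. The coefficient was -0.23 without the wild-type lead pool and -0.21 without the wild-type saline pool, each with a limma adjusted p of 1. It was -0.32 with GC-RMA (limma adjusted p = 0.486), and over all alternatives the limma adjusted p ran from 0.00165 to 1. Without Mt-KO lead, Mt-KO saline or heterozygous lead, 2 ribosomal protein genes were called: Rpl12 with Rpl27a in the first of these fits (0.54 per allele) and in the next (-0.99), of opposite sign, and Rpl12 with Rps4l (-0.35) in the last. These fits called 1029, 154 and 649 of all 10916 genes, in the same order. Without wild-type saline the 1 gene called was Rpl27a (1.30 per allele), of 15 in all. The coefficients of Rpl37a (-0.56, SE 0.27, limma adjusted p = 0.224), Rplp2 (-0.47, SE 0.27, limma adjusted p = 0.314) and Rps19 (-0.41, SE 0.23, limma adjusted p = 0.298) were as large and did not pass.

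Of the genes in the role groups, Rpl27a was the one called in any of the 4 tests. Of the 3 stalk genes 2 were measured: Rplp0 and Rplp2 had lead coefficients of 0.12 and -0.056. Of the 3 Mdm2-binding proteins only Rpl11 was measured. It had 13.51 and 13.37 in Mt-KO lead and saline, 13.73 and 13.55 in heterozygous lead and saline, and 13.49 and 13.97 in wild-type lead and saline, with a lead coefficient of -0.054 (SE 0.25). Of 13 p53 target genes 8 were tested and 0 were called in any of the 4 tests; their median lead coefficient was 0.0031. Of the 4 tested paralogues, Rpl7l1, Rpl22l1, Rps27l and Rps4l, none was called, with lead coefficients from -0.090 for Rps27l to 0.030 for Rps4l, while their tested parents Rpl7, Rpl22, Rpl39, Rps27 and Rps4x ran from -0.064 (Rpl22) to 0.15 (Rpl7). Rps7 and Rps19, both with mouse mutant phenotypes, had lead coefficients of 0.075 and -0.12, and neither was called in any test.

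The genes with and without a pyrimidine run near the annotated start differed little in the wild-type pair. The split rests on annotated starts and counts some runs that end before them. It therefore does not separate messages with and without the tract, and whether the tract matters here was not tested. Against their neighbours in brightness, the 20 tested genes with a run had a median of -0.16 and 18 were below 0, and the 18 tested genes without a run had a median of -0.16 and 18 were below 0. Rpl12 (-0.62) has a run in the window printed above and Rpl37a (-0.66) has none.

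Other genes of the translation machinery showed which of them shared the wild-type difference. Rpsa and Fau, the 2 measured ribosomal proteins whose symbols fall outside the rule, lay below their neighbours in the wild-type pair with a median of -0.22, and 76 proteins of the mitochondrial ribosome had a median of -0.20. The medians were 0.019 for 7 genes listed as elongation factors and 0.046 for 11 other messages with a pyrimidine tract. They were 0.049 for 24 initiation factors and -0.040 for 38 ribosome assembly factors. For the cytosolic ribosomal proteins it was -0.20 over large-subunit and -0.11 over small-subunit genes. In the lead, Mt-KO and heterozygous comparisons no gene of these 6 lists was called. In the allele test the calls were all lower per intact allele. They were 3 of 38 assembly factors (Nop58, Dkc1 and Rrp12, which act in the nucleolus) and 4 of 76 mitochondrial ribosomal proteins (Mrpl18, Mrps28, Mrpl45 and Mrpl47). Larp4 was also called, from 12 tested genes listed here under the mTOR and S6 kinase pathway. Its place in that pathway was not tested. Of all genes tested 412 of 10916 (3.77%) were called, 365 of them lower, and no difference between these lists and all genes was tested. Rpsa and Fau had lead coefficients of 0.056 and -0.061. The highest and lowest lead coefficients were 0.27 (Eef1a2) and -0.011 (Eef1e1) among genes listed as elongation factors. Among other pyrimidine-tract messages they were 0.23 (Btf3) and -0.027 (Eif3h). Eef1e1 is listed by its name, and whether it acts in elongation was not tested.

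**Figure D5:**
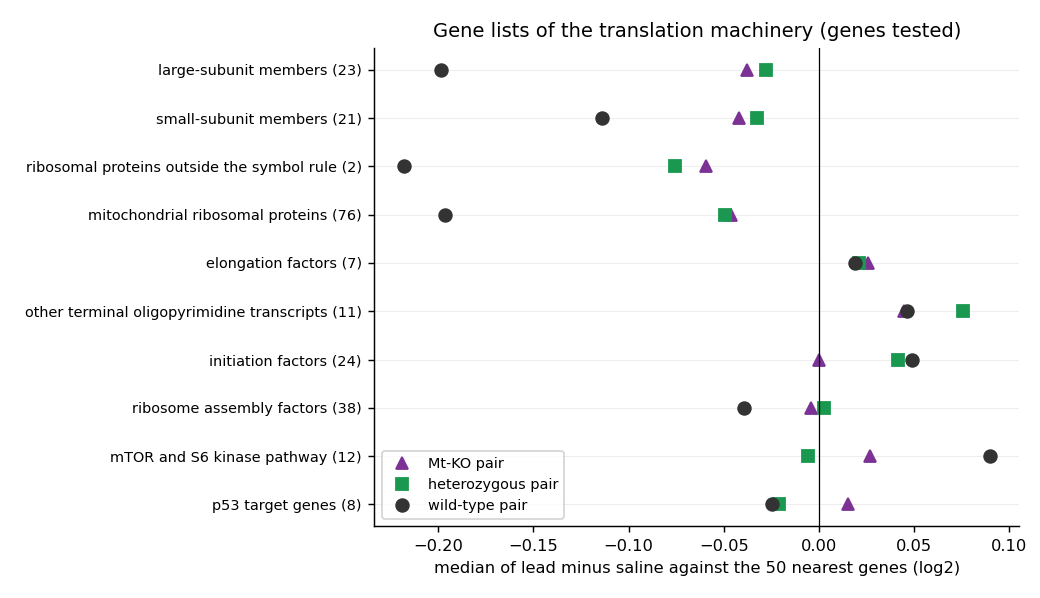
Median of lead minus saline less the 50 nearest genes in brightness (log2, horizontal axis) for the ribosomal protein genes by subunit and for 8 other lists (number of genes tested in brackets), with a triangle for the Mt-KO pair, a square for the heterozygous pair and a circle for the wild-type pair. In the wild-type pair the ribosomal protein lists, cytosolic and mitochondrial, lie between -0.22 and -0.11 and the genes listed as elongation factors at 0.019.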

How the data were processed

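Each of the 6 arrays was deposited as 3 columns, 1 per summary algorithm, 18 in all; these are 3 versions of the same measurement. The submitters' processing notes name Partek, RMA, GCRMA and PLIER, with no versions or settings. The authors' RMA and GC-RMA columns are deposited in log2 units, and their PLIER columns as linear intensity, taken here as log2(value + 16). Over the 45101 probe sets the column medians were 9.10 to 9.15 for RMA, 3.33 to 3.60 for GC-RMA and 524.02 to 561.8 for PLIER. The labels describe a labelling kit for whole-transcript arrays although the probe set names belong to a 3′ array, which was left unresolved. Precision is limited by the number of arrays.

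The platform annotation gives 1 symbol for 34958 probe sets, several for 932 and none for 9211, and only the first kind was used, with the brightest probe set by mean RMA per gene. Gene identifiers placed all 48 genes on GRCm38.p6 of RefSeq. The brightest 60% of genes entered limma (version 3.58.1, R 4.3.3; lmFit, then eBayes with a trend on mean level), two-sided, with Benjamini-Hochberg adjustment over all genes tested and a threshold of 0.05. The additive fit has genotype and treatment; a further fit has treatment, intact alleles as a linear term and their product. Each leaves 2 residual degrees of freedom, and limma's prior came out infinite, so the spread of a gene is that fitted at its brightness. The fit for lead was tested on simulated data with independent noise, and the genotype and allele tests were not. With no replicated combination, p-values set a coefficient against the scatter around the fitted model, as fitted for genes of like brightness. They do not set it against the gene's own scatter or the spread between animals.

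Genes were named by a rule: the 5 brightest and 5 dimmest, the 5 highest and 5 lowest coefficients of each comparison of lead or genotype, every gene called, the role lists, and the called or extreme genes of other lists. Genes with the widest gaps to their neighbours in brightness, the largest allele coefficients that were not called, and the genes whose start windows are printed were named after their values were seen. The members and lists were chosen with earlier results of these data known. The comparison with the 50 nearest genes and the group at 13 or more were chosen after seeing the data. The fits were recomputed with GC-RMA, PLIER, quantile normalization, centring on the median gene, the mean over probe sets, other brightness filters, eBayes without trend, probe sets without cross-matching types, and leaving out a pair (lead) or an array (genotype and allele tests). The comparison with the nearest genes was repeated with quantile normalization, GC-RMA and PLIER alone.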

Additional observations from a re-analysis of the deposited data

Results flagged for a closer look

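Rpl12 is singled out because its lead difference changed with the number of intact metallothionein alleles past the threshold, by -0.41 per allele (limma adjusted p = 0.0122). This was 1 of 44 ribosomal protein genes, in a test that called 412 of 10916 genes (3.77%), so the count does not set the group apart. The values of Rpl12 itself follow. Its lead differences were 0.11 in Mt-KO, 0.081 in heterozygous and -0.70 in wild-type brains, so the change lies between heterozygous and wild-type, and the coefficient was -0.23 without the wild-type lead pool and -0.21 without the wild-type saline pool (limma adjusted p = 1 in both). The median lead difference of the ribosomal protein genes is singled out because the pairs ran opposite ways, with 0.38 in the heterozygous pair, where all 44 genes were higher with lead, and -0.49 in the wild-type pair, where 43 of 44 were lower; that contrast between pairs was not tested as a whole. All tested genes leaned the same way (84.4% above 0 in the heterozygous pair, 78.7% below 0 in the wild-type pair), and against equally bright genes the medians were -0.031 and -0.15. No group holds more than 1 pool, so no sample could be set against others of its group.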

How the results depend on the processing

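No ribosomal protein gene was called for lead under the alternatives run, except Rpl27a without the wild-type pair (1 of 44, coefficient -0.37, limma adjusted p = 0.0451, against 0.104 to 1 in the other settings, of 2632 genes called in all). The median lead coefficient ranged from -0.15 without the heterozygous pair to 0.27 without the wild-type pair. For Mt-KO the count was 1, and it was 0 with GC-RMA, quantile normalization, centring on the median gene, the mean over probe sets, no brightness filter, the upper 40% of genes (where Rpl27a is not tested) and no trend; leaving out 1 array it ranged from 0 to 36 and the median coefficient from -0.66 to 0.061. For the heterozygote, leaving out 1 array moved the count of 0 to between 0 and 6 (the fit with 6 called 2421 of 10916 genes) and the median coefficient from -0.10 to between -0.47 and 0.26. In the allele test the count of 1 was 0 with GC-RMA, PLIER, quantile normalization, centring, no brightness filter and the upper 40% of genes (where Rpl12 is not tested), 3 with the mean over probe sets, and 0 to 2 leaving out 1 array; without trend it was Rpl37a in place of Rpl12. Of all 10916 genes, the allele test called 508 with the mean over probe sets and 79 without trend. The large minus small difference of median lead coefficients, -0.042, was -0.0097 with GC-RMA, 0.0024 with quantile normalization, -0.0066 with the mean over probe sets, -0.0045 in the upper 40% of genes, -0.011 without cross-matching probe sets, -0.022 without the wild-type pair and -0.011 without the heterozygous pair. The cause of these changes was not tested. Over all genes, GC-RMA called 0 genes by limma in each comparison, with 294 for lead, 592 for Mt-KO, 161 for the heterozygote and 1241 for the alleles at an unadjusted p under 0.05. No paired analysis was possible because no combination of genotype and treatment has more than 1 pool, beyond the pairing that the additive fit already holds, of treatments within genotype and of genotypes within treatment. The settings chosen after seeing the data are the 50 nearest genes and the group at 13 or more.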

Other observations

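A further 110 probe sets carry several symbols, a ribosomal protein among them, and were left out of the counts because no gene can be named from them. At a mean RMA of 12 or more there were 84 such probe sets. The median of lead minus saline over these was 0.16 in Mt-KO brains (80 above 0), 0.38 in heterozygous brains (83 above 0) and -0.50 in wild-type brains (82 below 0). The 44 genes tested had 0.16, 0.38 and -0.49; some of them are also among the symbols of these probe sets, so the sets are not independent.

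Among the 76 tested proteins of the mitochondrial ribosome, a separate ribosome that makes respiratory chain subunits, the median of lead minus saline was 0.046 in Mt-KO, 0.11 in heterozygous and -0.36 in wild-type brains. Their lead coefficients ran from -0.42 for Mrps21 to 0.12 for Mrps7, and none was called. The median was -0.074, against 0.022 over all genes tested.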
